A study of Mus musculus with 30 samples.

Results

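Mitochondrial ribosomal proteins are the nuclear-encoded proteins of the ribosome inside mitochondria. The genes described here are the protein-coding genes of the RefSeq GRCm38 annotation whose symbols start with Mrpl or Mrps followed by a digit. There are 78 of them among 21887 protein-coding genes, 49 with Mrpl symbols (large subunit) and 29 with Mrps symbols (small subunit). The data are lists of chromatin immunoprecipitation sequencing peaks from WT-MA9 cells, mouse acute myeloid leukaemia cells with stable expression of the MLL-AF9 fusion from an MSCV retroviral vector with GFP. The 4 libraries with a list were UTX from MI-503-treated cells, UTX from DMSO-treated cells, Menin from MI-503-treated cells and Menin from DMSO-treated cells. All 4 were made at day 4 of treatment, and no source used here gives the MI-503 concentration. Each of the 4 groups had 1 library, so nothing below has a replicate check and no p-value was computed. The labels name 30 libraries, of which 26 were not analysed here.

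The mitochondrial ribosome translates the few messages encoded by mitochondrial DNA, all of which specify membrane subunits of the respiratory chain and ATP synthase. All of its proteins are made in the cytosol and imported, so their supply is set by nuclear genes. Their promoters are mostly CpG-rich, and transcription factors such as NRF1, GABP and YY1 are known to act at nuclear genes for mitochondrial proteins. Acute myeloid leukaemia cells are known to depend on mitochondrial translation. Menin, the product of Men1, is a scaffold of the MLL1 and MLL2 histone methyltransferase complexes. UTX, the product of Kdm6a, is a histone demethylase found in the related MLL3 and MLL4 complexes. The inhibitor MI-503 keeps Menin from binding MLL1, and DMSO is its vehicle.

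A gene was said to have a peak where the summit, the position of highest signal, lay within 1 kb of its annotated start or end. Fold enrichment is the authors' value for each summit over the local background. It describes and ranks peaks within a list only, because the lists come from different libraries and antibodies. The UTX MI-503 list held 14231 peaks and the UTX DMSO list 217. The Menin MI-503 list held 8 peaks and the Menin DMSO list 11195. From the values behind the folds, reads of the UTX MI-503 library were outnumbered at least 1.14 times by those of the UTX DMSO library. The Menin MI-503 library exceeded the Menin DMSO library at least 1.35 times. For each antibody the shorter list therefore came from the library with more reads, and absolute read numbers are unknown. Intervals below are exact Clopper-Pearson 95% intervals and cover counting error only.

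The sequences just upstream of the transcription start are shown for 7 of the genes, from RefSeq (GRCm38.p6), 5′ to 3′ on the strand of the gene. The first 3 are the only mitochondrial ribosomal protein genes with a peak in 3 of the lists. Mrpl45 and Mrpl32 follow because they had the highest UTX MI-503 folds after Mrpl49 and carry the NRF1 pattern. Mrpl3 and Mrps22 are shown for contrast, since no summit lay within 25 kb of either. The stretch of Mrpl49 holds no match, and matches after the start are counted further on but not shown. Capitals mark matches to CCAAT (the NF-Y box), CCGGAAG (an ETS/GABP core), the NRF1 pattern and AAGATGGC (YY1) on either strand. The stretches of Mrpl49, Mrps12 and Mrpl32 stop where the annotated span of the neighbouring gene begins.
Mrpl49 (chr19:6057756-6057946, minus strand): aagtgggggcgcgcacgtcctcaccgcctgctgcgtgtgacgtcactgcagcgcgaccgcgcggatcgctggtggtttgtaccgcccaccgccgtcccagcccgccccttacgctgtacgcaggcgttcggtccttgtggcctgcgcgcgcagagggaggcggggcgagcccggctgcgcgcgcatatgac
Mrpl37 (chr4:107066867-107067116, minus strand): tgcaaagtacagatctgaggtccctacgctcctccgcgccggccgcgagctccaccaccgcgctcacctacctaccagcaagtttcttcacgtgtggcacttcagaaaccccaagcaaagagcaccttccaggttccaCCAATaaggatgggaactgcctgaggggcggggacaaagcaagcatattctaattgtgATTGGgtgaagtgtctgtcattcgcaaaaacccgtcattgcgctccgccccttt
Mrps12 (chr7:28741822-28741956, minus strand): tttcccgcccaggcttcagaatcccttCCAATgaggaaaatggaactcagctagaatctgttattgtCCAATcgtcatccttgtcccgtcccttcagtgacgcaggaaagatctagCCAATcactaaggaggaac
Mrpl45 (chr11:97315466-97315715, plus strand): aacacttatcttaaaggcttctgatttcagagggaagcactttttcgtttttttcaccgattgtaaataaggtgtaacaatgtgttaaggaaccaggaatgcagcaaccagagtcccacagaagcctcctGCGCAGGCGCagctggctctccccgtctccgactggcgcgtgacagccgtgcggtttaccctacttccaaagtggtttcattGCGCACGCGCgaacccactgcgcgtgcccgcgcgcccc
Mrpl32 (chr13:14613038-14613241, minus strand): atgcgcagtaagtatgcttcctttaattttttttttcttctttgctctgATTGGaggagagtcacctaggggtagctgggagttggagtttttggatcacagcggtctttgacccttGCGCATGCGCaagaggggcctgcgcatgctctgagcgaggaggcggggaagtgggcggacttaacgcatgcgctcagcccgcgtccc
Mrpl3 (chr9:105053018-105053267, plus strand): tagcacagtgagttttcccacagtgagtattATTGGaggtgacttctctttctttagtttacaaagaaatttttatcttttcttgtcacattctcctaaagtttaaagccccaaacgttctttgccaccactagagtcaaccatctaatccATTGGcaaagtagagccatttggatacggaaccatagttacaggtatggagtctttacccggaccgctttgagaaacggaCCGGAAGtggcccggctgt
Mrps22 (chr9:98601680-98601929, minus strand): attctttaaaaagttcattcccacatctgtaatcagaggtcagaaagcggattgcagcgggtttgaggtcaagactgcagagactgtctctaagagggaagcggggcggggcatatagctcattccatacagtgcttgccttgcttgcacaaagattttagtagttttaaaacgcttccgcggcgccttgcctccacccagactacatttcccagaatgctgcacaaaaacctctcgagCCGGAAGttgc

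UTX peaks were listed at most mitochondrial ribosomal protein genes in MI-503-treated cells and at very few in DMSO-treated cells, while Menin peaks were listed at most of them in DMSO-treated cells and at none in MI-503-treated cells. A UTX MI-503 peak was present at 58 of the 78 genes, a share of 74.4% (interval 63.2 to 83.6%), beside 36.5% of all protein-coding genes. A UTX DMSO peak was present at 3 of the 78, or 3.85% (interval 0.80 to 10.8%), beside 0.777% of all genes. A Menin MI-503 peak was present at 0 of the 78 (interval 0 to 4.62%), beside 0.00914% of all genes. A Menin DMSO peak was present at 50 of the 78, or 64.1% (interval 52.4 to 74.7%), beside 31.2% of all genes. By this rule, in both long lists the share of mitochondrial ribosomal protein genes was above the share of all genes, and the interval did not reach that share. The counts follow the length of the lists: among only the 217 highest peaks of each long list, 2 of the 78 genes had a UTX MI-503 peak, against 3 in the UTX DMSO list of that length, and 1 had a Menin DMSO peak. At a fold of at least 5, Menin DMSO peaks were present at 31 genes. The share of all genes was not counted at either cut, so these counts cannot be set beside it. A gene outside a list had no peak past the authors' threshold, which is not a measure that the protein was absent.

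**Figure D1:**
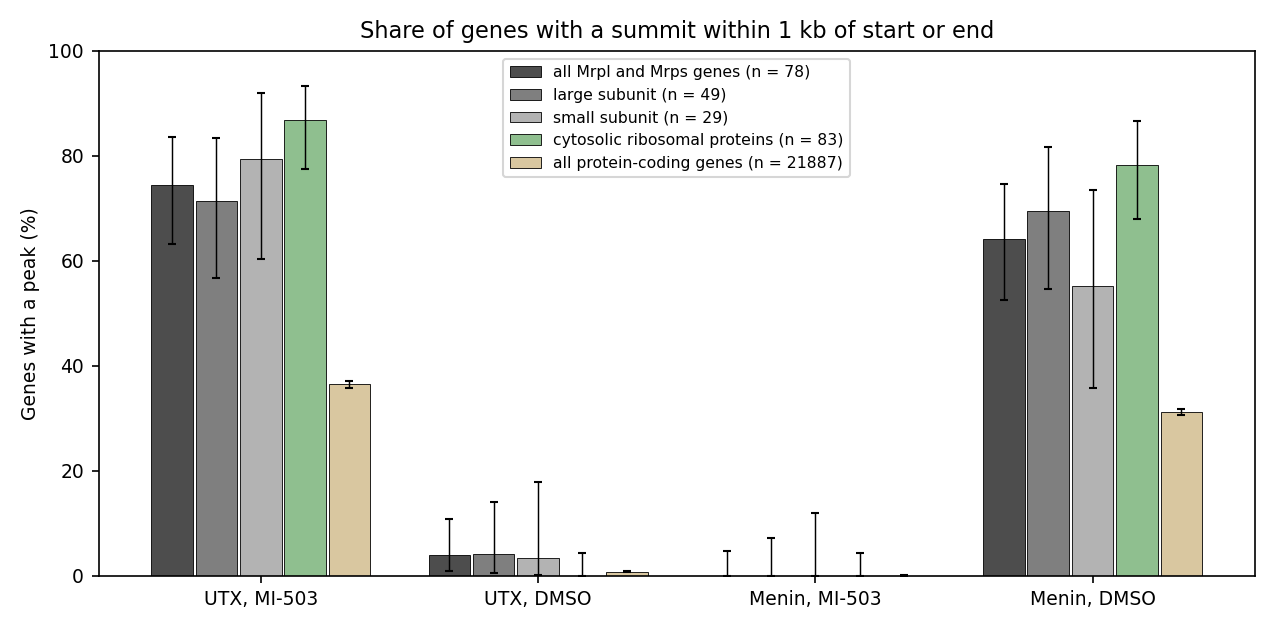
Share of genes with a peak, in percent, in the UTX MI-503, UTX DMSO, Menin MI-503 and Menin DMSO lists. Bars stand for the mitochondrial ribosomal protein genes, their large and small subunit genes, cytosolic ribosomal protein genes and all protein-coding genes, and error bars are exact 95% intervals for counting error. The bars of mitochondrial ribosomal protein genes reach 74.4% for UTX MI-503 and 64.1% for Menin DMSO, above the 36.5% and 31.2% of all genes.

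The 3 genes with a UTX DMSO peak were Mrpl49, Mrpl37 and Mrps12, and at each of them peaks of UTX MI-503 and Menin DMSO covered the same sequence. Such coincidence was the rule in the UTX DMSO list and does not set these genes apart. Near the boundaries of all genes that list had 144 peaks. UTX MI-503 peaks shared bases with 100% of those, and Menin DMSO peaks with 141 (97.9%). Mrpl49, a large subunit protein, had a UTX MI-503 peak at chr19:6057558-6058154 with a fold of 31.7, a UTX DMSO peak at chr19:6057783-6057909 with a fold of 6.18 and a Menin DMSO peak at chr19:6057713-6058155 with a fold of 19.1. Those were the highest UTX MI-503 and Menin DMSO folds of all 78 genes. The UTX MI-503 summit lay 87 bp upstream of the Mrpl49 start, inside the sequence shown above. Mrpl37, another large subunit protein, had a UTX MI-503 peak at chr4:107066621-107067133 with a fold of 21.9, a UTX DMSO peak at chr4:107066856-107066990 with a fold of 9.68 and a Menin DMSO peak at chr4:107066808-107067067 with a fold of 7.98. Its UTX MI-503 summit lay 96 bp upstream of the start, and a second UTX MI-503 peak with a fold of 6.02 lay further upstream. Mrps12, the homologue of the bacterial decoding-site protein S12, had a UTX MI-503 peak at chr7:28741604-28742382 with a fold of 21.0, a UTX DMSO peak at chr7:28741802-28741966 with a fold of 8.21 and a Menin DMSO peak at chr7:28741784-28741993 with a fold of 4.58. Its UTX MI-503 and UTX DMSO summits fell on the same base, 47 bp upstream of the start and between the second and the third CCAAT box of the printed sequence.

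The number of DNA fragments over each summit can be recovered from the authors' fold and p-value. At Mrpl49 it was 57 in UTX MI-503 (exact Poisson 95% interval 43.2 to 73.9), 13 in UTX DMSO (6.92 to 22.2) and 127 in Menin DMSO (106 to 151). Mrpl37 had 39 fragments in UTX MI-503 (27.7 to 53.3), 21 in UTX DMSO (13 to 32.1) and 46 in Menin DMSO. For Mrps12 the counts were 38 in UTX MI-503 (26.9 to 52.2), 16 in UTX DMSO (9.15 to 26.0) and 33 in Menin DMSO. At all 3 genes the recovered count was higher at the UTX MI-503 summit than at the UTX DMSO summit, although the UTX DMSO library had more reads. The intervals of the pair overlapped at Mrpl37 and did not at Mrpl49 and Mrps12. Among the highest peaks of all genes, the narrowest was 179 bp wide in UTX MI-503 and 127 bp in UTX DMSO. The lowest background recovered was 0.827 in UTX MI-503, the library with fewer reads, and 0.796 in UTX DMSO. The fragment length used for each list is not given and was not tested. The counts and their intervals can therefore not be taken as like for like, and no conclusion is drawn from their overlap. Over all genes with a peak, the summit held 8 to 72 fragments in UTX MI-503 (median 17, 58 genes) and 16 to 127 in Menin DMSO (median 31.5, 50 genes).

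Most genes with a peak had it in both long lists, and the 2 proteins were mapped to nearly the same base. Peaks in both of these lists were present at 46 of the 78 genes (59.0%), beside 28.4% of all genes. The highest summits of the pair lay a median of 44.5 bp apart at those genes, within 100 bp at 34 of them and at most 410 bp apart. Of the 64 UTX MI-503 peaks at these genes, 47 (73.4%) were overlapped by a Menin DMSO peak, beside 67.9% of all UTX MI-503 peaks near a gene boundary. Of the 52 Menin DMSO peaks, 47 (90.4%) shared bases with one of UTX MI-503, beside 86.8% of all such Menin DMSO peaks. Both shares of overlap had intervals that included the share of all boundary peaks (60.9 to 83.7% for UTX MI-503, 78.97 to 96.8% for Menin DMSO).

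**Figure D2:**
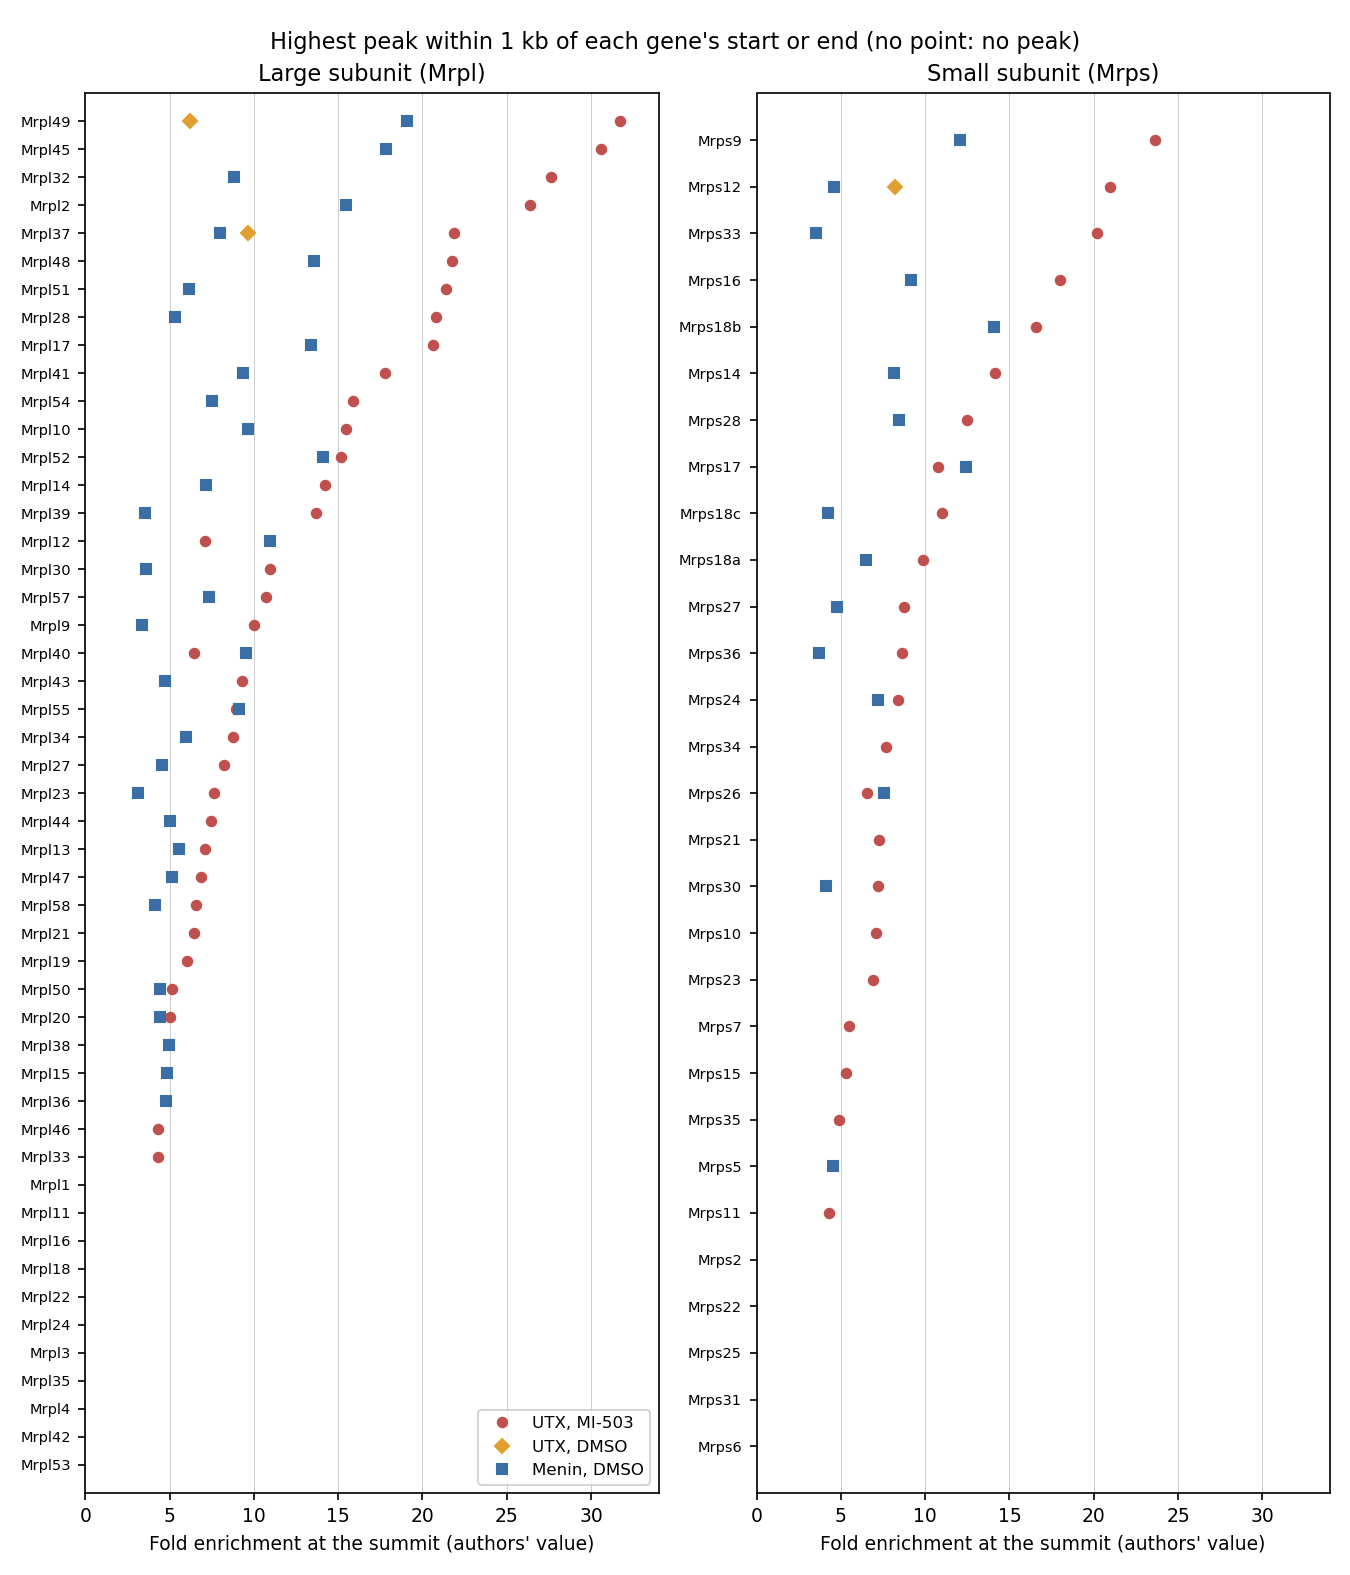
Fold enrichment of the highest peak within 1 kb of each mitochondrial ribosomal protein gene, in the UTX MI-503, UTX DMSO and Menin DMSO lists, with large and small subunit genes in separate panels. A gene with no point has no peak in any list, and Mrpl49 stands at the far right of the large subunit panel at 31.7-fold in UTX MI-503.

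By the summed rank of the 2 proteins, 8 of the 10 genes highest in both long lists were of the large subunit (80%), beside 31 of the 46 genes with both peaks (67.4%). Mrpl45, which ties the large subunit to the inner membrane near the exit tunnel, had folds of 30.6 for UTX MI-503 and 17.9 for Menin DMSO. Mrpl2, a conserved core protein of the peptidyl transferase region, had folds of 26.3 and 15.5 in the same order. Mrpl48, of the central protuberance, had 21.7 for UTX MI-503 and 13.6 for Menin DMSO. Mrpl49, Mrpl45 and Mrpl2 ranked highest in that order, and only Mrpl45 among them did not share its peak with another gene. Mrpl17 had folds of 20.6 for UTX MI-503 and 13.4 for Menin DMSO, and Mrpl32 had 27.6 and 8.80. Mrpl52 had 15.2 for UTX MI-503 and 14.1 for Menin DMSO, and Mrpl41 had 17.8 and 9.35. In the small subunit, Mrps9, a protein of the head, had folds of 23.6 for UTX MI-503 and 12.1 for Menin DMSO, while Mrps18b had 16.6 and 14.1. The other 36 genes with both peaks had UTX MI-503 folds of 5.00 to 21.9 and Menin DMSO folds of 3.13 to 12.4. A gene high in the UTX MI-503 list thus tended to be high in the Menin DMSO list: Spearman's rho was 0.50 over the 46 genes and 0.43 over all 6210 genes with both peaks. The points come from the same pair of libraries, and the correlation is given as a description.

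**Figure D3:**
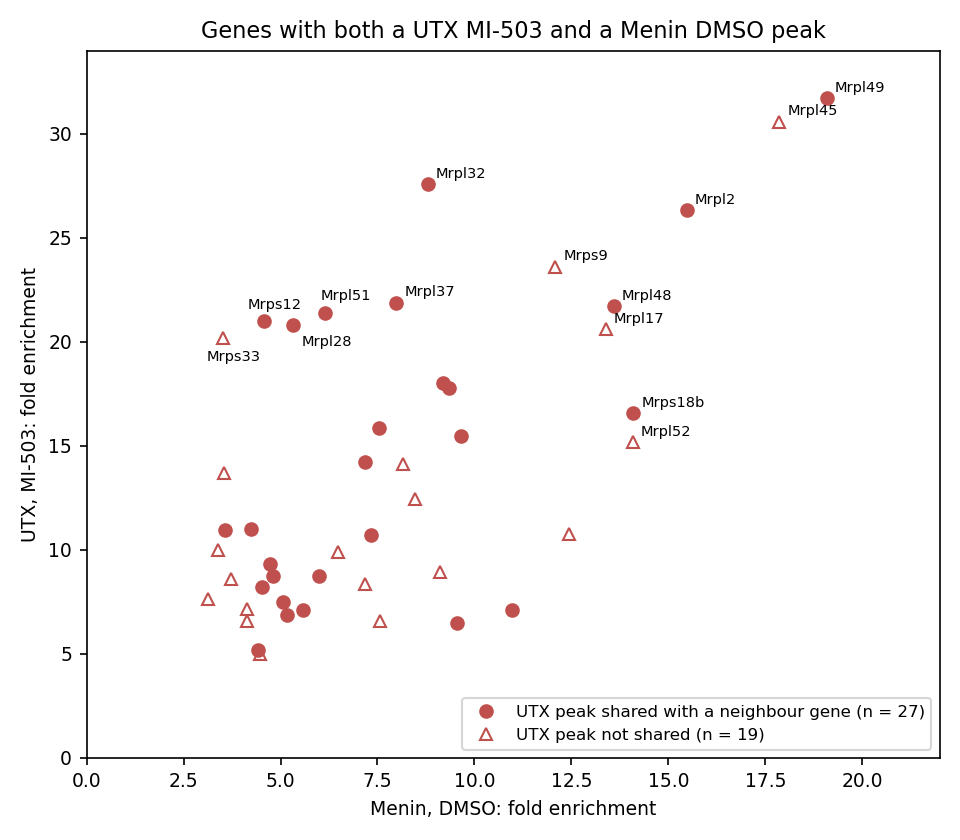
Fold enrichment in Menin DMSO (horizontal) against UTX MI-503 (vertical) for the 46 mitochondrial ribosomal protein genes with both peaks; filled circles are genes whose UTX peak is shared with a neighbour gene and open triangles are the others. Mrpl49, Mrpl45 and Mrpl2 lie at the upper right, and Mrps33, Mrps12, Mrpl28 and Mrpl51 combine a UTX MI-503 fold above 20 with a Menin DMSO fold below 6.2.

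The median folds were slightly below those of all genes with peaks. The median of the highest UTX MI-503 fold was 9.13 over the 58 genes (quartiles 6.98 and 16.4), beside 10.1 (quartiles 7.11 and 15.1) over all genes with such a peak. For Menin DMSO it was 6.31 over the 50 genes (quartiles 4.54 and 9.30), beside 7.34 (quartiles 5.38 and 10.8) over all genes. The upper quartile in UTX MI-503 was thus above that of all genes while the median was below. The median width of those peaks was 386.5 bp in UTX MI-503 and 293 bp in Menin DMSO, beside 381 and 351 bp over all genes. The lowest UTX MI-503 folds were 4.29 at Mrpl33 and 4.31 at Mrpl46 and Mrps11, which share a single peak. The lowest Menin DMSO folds were 3.13 at Mrpl23, a protein of the exit tunnel, 3.39 at Mrpl9 and 3.52 at Mrps33. At Mrpl9 and Mrps33 the local background was at least 3 times the lowest background of the list, which lowers a fold at a given number of fragments.

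Genes with a peak of 1 protein alone had low folds. A UTX MI-503 peak without a Menin DMSO peak was found at 12 genes (15.4%, interval 8.21 to 25.3%), beside 8.1% of all genes. Of genes with a UTX MI-503 peak these were 12 of 58, beside 1772 of 7982 over all genes, which is not a larger part. Small subunit genes made up 8 of the 12. The UTX MI-503 folds of the 12 were 4.29 to 7.66 with a median of 5.75. The median was 10.96 in the 46 genes that also had a Menin DMSO peak. All genes showed the same order, with medians of 6.57 without and 11.7 with a Menin DMSO peak. In the small subunit these were Mrps34 (7.66-fold), Mrps21 (7.27), Mrps10 (7.11), Mrps23 (6.93), Mrps7 (5.47), Mrps15 (5.30), Mrps35 (4.92) and Mrps11 (4.31). In the large subunit they were Mrpl21 (6.46-fold), Mrpl19 (6.02), Mrpl46 (4.31) and Mrpl33 (4.29). A Menin DMSO peak without a UTX MI-503 peak was found at 4 genes (5.13%, interval 1.41 to 12.6%), beside 2.85% of all genes. Of genes with a Menin DMSO peak these were 4 of 50, beside 624 of 6834 over all genes, again not a larger part. The 4 were Mrpl38 (4.98-fold), Mrpl15 (4.84), Mrpl36 (4.77) and Mrps5 (4.53), all below the median Menin DMSO fold of 6.31. At Mrpl38 the nearest UTX MI-503 summit lay 1133 bp from the gene and at Mrpl36 it lay 1126 bp from the annotated boundary, just outside the window. That Mrpl36 summit was 43 bp from the RefSeq start (9.85-fold), and Mrps23 likewise had a Menin DMSO summit 15 bp from its RefSeq start (5.12-fold).

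No peak in any list was found at 16 of the 78 genes (20.5%), beside 60.7% of all genes. The 11 of the large subunit were Mrpl1, Mrpl3, Mrpl4, Mrpl11, Mrpl16, Mrpl18, Mrpl22, Mrpl24, Mrpl35, Mrpl42 and Mrpl53. The 5 of the small subunit were Mrps2, Mrps6, Mrps22, Mrps25 and Mrps31. For some of these RefSeq places a transcription start inside the annotated span, and a summit lay near that start. Mrps2 had a UTX MI-503 summit 81 bp from such a start (6.32-fold) and Mrps31 had one 169 bp from its start (5.25-fold). Mrpl18, a central protuberance protein, had a UTX MI-503 summit 279 bp from its start (10.8-fold) and a Menin DMSO summit 199 bp from it (6.28-fold). At Mrpl22, an exit tunnel protein, a Menin DMSO summit lay 12 bp from the start (4.53-fold). Adding these starts to the rule gave UTX MI-503 peaks at 62 genes (79.5%), beside 39.4% of all genes, and Menin DMSO peaks at 53 (67.9%), beside 33.6%, and left 12 genes with none. Mrpl4 had peaks of both proteins inside the gene, 1656 bp from its boundary in UTX MI-503 (12.4-fold) and 1657 bp in Menin DMSO (8.37-fold).

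The remaining 11 genes had no summit of either long list within 3 kb of a boundary or start. The nearest UTX MI-503 summit lay 5533 bp from Mrpl53 and 526825 bp from Mrpl1, the closest and the farthest of the 11. It lay 25119 bp from Mrps22 and 54319 bp from Mrpl3, whose upstream sequences are shown above. By nearest summit, just inside the 1 kb window were Mrpl48 in UTX MI-503, at 820 bp, and Mrpl23 in Menin DMSO, at 985 bp. Just outside it were Mrps31 in UTX MI-503, at 1060 bp, and Mrpl18 in Menin DMSO, at 1497 bp.

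Large and small subunit genes had overlapping shares in both long lists. A UTX MI-503 peak was present at 35 of 49 large subunit genes (71.4%, interval 56.7 to 83.4%) and at 23 of 29 small subunit genes (79.3%, interval 60.3 to 92.0%). A Menin DMSO peak was present at 34 of 49 large subunit genes (69.4%, interval 54.6 to 81.7%) and at 16 of 29 small subunit genes (55.2%, interval 35.7 to 73.6%). The order of the subunits was thus opposite for the proteins, with each pair of intervals overlapping. Both peaks were present at 31 large and 15 small subunit genes. The median highest UTX MI-503 fold was 10.0 in the large subunit and 8.61 in the small subunit. For Menin DMSO it was 6.07 in the large subunit and 6.83 in the small subunit. Symbols do not match structure throughout: Mrps30 and Mrps18a are proteins of the large subunit in known structures, and Mrps36 is now placed in the 2-oxoglutarate dehydrogenase complex. With those assignments the large subunit had 37 genes with a UTX MI-503 peak and 36 with a Menin DMSO peak, and the small subunit had 20 and 13.

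Some of the genes were grouped by place in the ribosome, from known structures. By the 1 kb rule, every group held genes with and genes without a peak. Of the genes counted below as having none, Mrpl18, Mrpl22 and Mrps31 had a summit near a RefSeq start. Mrpl4 had peaks of both proteins inside the gene, as given above. Of 6 central protuberance genes (Mrpl18, Mrpl38, Mrpl40, Mrpl46, Mrpl48 and Mrpl58), UTX MI-503 peaks were found at 4 and Menin DMSO peaks at 4. Mrpl58, a peptidyl-tRNA hydrolase that rescues stalled ribosomes, had its highest peak beyond the gene end in UTX MI-503 (6.57-fold) and a second one near its start (5.52-fold). Of 5 genes grouped here with the peptidyl transferase region (Mrpl2, Mrpl3, Mrpl4, Mrpl16 and Mrpl27), 2 had peaks of both proteins. The other 3 had none by the 1 kb rule. Of 4 genes around the exit tunnel, Mrpl45 and Mrpl23 had peaks of both and Mrpl22 and Mrpl24 had none. Of 3 genes of the stalk and its base, Mrpl10 (15.5-fold in UTX MI-503 and 9.66-fold in Menin DMSO) and Mrpl12 (7.11-fold and 10.97-fold) had both, and Mrpl11 had none. Of 8 genes of the small subunit head, Mrps9, Mrps14, Mrps24 and Mrps33 had peaks of both, Mrps7, Mrps10 and Mrps35 had the UTX MI-503 peak alone, and Mrps31 had none. Of 4 platform genes, Mrps18b and Mrps18c had both peaks, Mrps11 had the UTX MI-503 peak alone and Mrps6 had none.

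Many of the peaks were also near a neighbouring gene. The peak was within 1 kb of another protein-coding gene's start or end for 34 of the 58 genes with a UTX MI-503 peak (58.6%, interval 44.9 to 71.4%), beside 31.7% of all genes with such a peak. For Menin DMSO this held for 29 of 50 genes (58.0%, interval 43.2 to 71.8%), beside 32.2% of all. Such a peak cannot be assigned to either gene of a pair, and its summit was nearer the neighbour at 19 of the 34 genes in UTX MI-503 and at 12 of the 29 in Menin DMSO. In UTX MI-503, shared peaks were found at 25 of 35 large subunit genes (71.4%) and 9 of 23 small subunit genes (39.1%). In Menin DMSO they were found at 23 of 34 large subunit genes (67.6%) and 6 of 16 small subunit genes (37.5%). The intervals of the subunits overlapped in both lists. The highest summit lay between the starts of 2 genes transcribed away from each other, no more than 1 kb apart, at 11 of 52 genes with known strand in UTX MI-503 and at 12 of 45 in Menin DMSO. The share of all genes was not counted for these summits, nor for those nearer the neighbour. With shared peaks left out, UTX MI-503 peaks were present at 24 of the 78 genes (30.8%, interval 20.8 to 42.2%), beside 25.8% of all genes counted the same way. No UTX DMSO peak was then left at the 78 genes, beside 0.512% of all genes. Menin DMSO peaks were then present at 21 (26.9%, interval 17.5 to 38.2%), beside 21.7% of all genes. Both intervals of the 78 genes included the share of all genes. These totals keep the genes with another gene's boundary within 1 kb (56.4% of the 78, beside 24.8% of all genes), whose peaks are the ones mostly left out. Among genes with no such boundary, UTX MI-503 peaks were present at 24 of 34 (70.6%), beside 28.1% of all genes of that kind. Menin DMSO peaks were present at 20 of the 34 (58.8%), beside 23.7%. With such a boundary the shares lay closer, at 77.3% beside 61.9% for UTX MI-503 and 68.2% beside 54.0% for Menin DMSO.

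All 3 genes with a UTX DMSO peak shared it with a neighbour. Mrpl49 starts 192 bp from Fau, which encodes a ubiquitin-like protein fused to cytosolic ribosomal protein eS30. Mrpl37 starts 128 bp from Cyb5rl, a cytochrome b5 reductase family gene. Mrps12 starts 147 bp from Sars2, the mitochondrial seryl-tRNA synthetase. The starts of the 2 genes in each pair face away from each other, and the UTX DMSO summit lay between the RefSeq starts at all 3. At Mrpl37 the annotated spans of the pair overlap. Among the 10 highest shared UTX MI-503 peaks, the others were Mrpl32 with Psma2 (27.6-fold), Mrpl2 with Klc4 (26.3-fold), Mrpl48 with Rab6a (21.7-fold), Mrpl51 with Ncapd2 (21.4-fold), Mrpl28 with Pgap6 (20.8-fold), Mrps16 with Cfap70 (18.0-fold) and Mrpl41 with Pnpla7 (17.8-fold). Psma2 is a proteasome subunit, Klc4 a kinesin light chain, Rab6a a Golgi small GTPase and Ncapd2 a condensin subunit.

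Several neighbours also encode mitochondrial proteins. Mrpl47 shared its peaks with Ndufb5, and Mrpl36 shared its Menin DMSO peak with Ndufs6, both subunits of respiratory complex I. Mrpl43 shared its peaks with Twnk, the helicase of mitochondrial DNA, and Mrps27 shared its peaks with Ptcd2, a mitochondrial RNA-binding protein. Mrpl46 and Mrps11 were the only pair within the gene family, with starts 42 bp apart and the weak UTX MI-503 peak in common. The other named pairs included Mrpl57 with Ska3, Mrpl40 with the histone chaperone gene Hira, Mrpl27 with Eme1, Mrps18c with Helq and Mrpl50 with Zfp189. In all there were 38 listings of a gene with a neighbour over 36 genes, the Mrpl46 and Mrps11 pair being listed from both sides. Strand was known for 31 of the listings, and in 26 the neighbour lay on the opposite strand.

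This arrangement was a property of the annotation as well as of the peaks. Another protein-coding gene began or ended within 1 kb of 44 of the 78 genes (56.4%), beside 24.8% of all genes. A start on the opposite strand lay within 1 kb of the start of 25 of the 69 genes with known strand (36.2%), beside 9.61% of all genes with known strand. With such a start, 23 of 25 genes (92.0%) were in the UTX MI-503 list and 20 of 25 (80%) in the Menin DMSO list. Without one, 29 of 44 (65.9%) were in the UTX MI-503 list and 25 of 44 (56.8%) in the Menin DMSO list. Over all genes the shares in the same arrangement were 81.2% with and 32.7% without for UTX MI-503, and 72.7% with and 27.9% without for Menin DMSO. With and without such a start, the shares of mitochondrial ribosomal protein genes were above those of all genes, by a smaller margin with one. No interval was computed for these groups, the first of which held only 25 genes. The part of the arrangement in the peaks was not tested.

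Where strand was known, nearly all peaks sat at the transcription start. The rule kept only summits within 1 kb of a gene start or end, and distances to the transcription start were not counted over all genes. The median distance to the nearest gene boundary was much the same over all genes. It was 97.5 bp beside 104 bp in UTX MI-503, and 82.5 bp beside 85 bp in Menin DMSO. The highest UTX MI-503 summit was within 1 kb of the start at 50 of 52 genes, at a median of -15 bp (quartiles -94.25 and 58.25 bp, negative being upstream). The exceptions were Mrpl58, whose highest peak lay beyond the gene end, and Mrps23, whose peak lay at the annotated boundary far upstream of its RefSeq start. Each had another UTX MI-503 summit near that start, 119 bp from it at Mrpl58 and 73 bp from it at Mrps23. The highest Menin DMSO summit was at the start at 43 of 45 genes, at a median of -24 bp (quartiles -86.5 and 39 bp), with Mrpl58 (beyond the gene end) and Mrpl36 (at the upstream annotated boundary) as the exceptions. Summits lay upstream of the start at 31 genes and downstream at 19 in UTX MI-503, and upstream at 25 and downstream at 18 in Menin DMSO. At Mrpl45 both summits lay about 800 bp inside the annotated gene and only 5 bp (UTX MI-503) and 7 bp (Menin DMSO) from the RefSeq start used for its printed sequence.

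**Figure D4:**
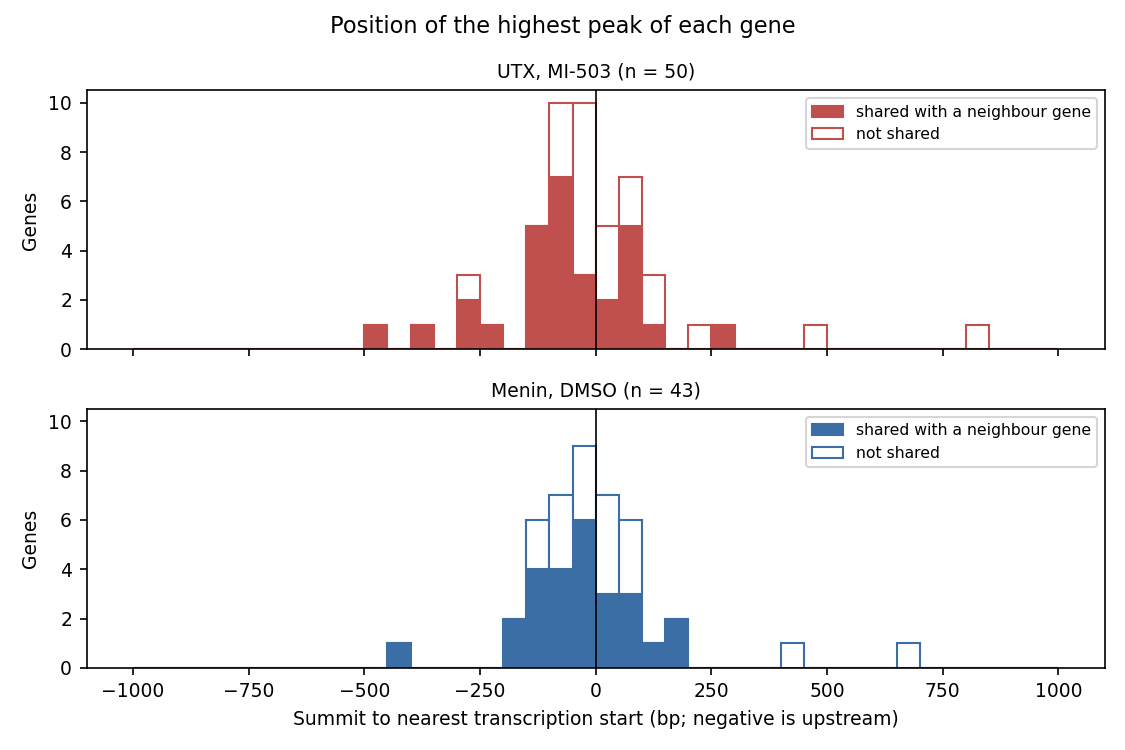
Distance in bp from the transcription start to the highest summit of each mitochondrial ribosomal protein gene, in UTX MI-503 (upper panel) and Menin DMSO (lower panel), with negative values upstream. Filled bars are peaks shared with a neighbour gene, open bars are the others, and both panels pile up within 100 bp of the start.

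The promoter table held 69 of the 78 genes, and each promoter ran from 250 bases before to 50 after the start. Mrpl15, Mrps28, Mrpl19, Mrps35, Mrpl4, Mrpl54, Mrpl38, Mrpl13 and Mrps34 were not in it. The 4 patterns were searched on both strands, each on its own, so that matches to different patterns may overlap. CCGGAAG was found in 26 of the 69 promoters (37.7%), beside 12.9% of all 17492 genes in the table and 24.8% of all genes with a UTX MI-503 summit within 1 kb of a RefSeq start. AAGATGGC was found in 12 (17.4%), beside 3.57% of all genes and 6.23% of those with such a summit. The NRF1 pattern was found in 13 (18.8%), beside 7.17% and 14.9%. CCAAT, a short pattern, was found in 27 (39.1%), beside 42.3% and 46.0%. A match is a string of letters and not a measured binding site.

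For the comparison of promoters with and without a peak, a peak was taken to be a summit within 1 kb of a RefSeq start, which 56 of the 69 genes had in UTX MI-503 and 13 did not. The NRF1 pattern was found in 13 of the 56 promoters with a UTX MI-503 summit (23.2%, interval 12.98 to 36.4%) and in 0 of the 13 without (interval 0 to 24.7%), and those intervals overlap. Over all genes the shares were 14.9% with and 2.22% without such a summit. The 13 promoters belonged to Mrpl9, Mrpl12, Mrpl14, Mrpl17, Mrpl30, Mrpl32, Mrpl39, Mrpl44, Mrpl45, Mrpl57, Mrps9, Mrps21 and Mrps26. All of these except Mrps21 also had a Menin DMSO summit at the start. Mrpl45 carries the NRF1 pattern at 2 places in the sequence shown.

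The other patterns were found on both sides of the same split. CCGGAAG was in 22 of the 56 promoters with a UTX MI-503 summit (39.3%) and 4 of the 13 without (30.8%), beside 24.8% and 5.31% over all genes. CCAAT was in 22 of the 56 (39.3%) and 5 of the 13 (38.5%), beside 46.0% and 39.9% over all genes. AAGATGGC was in 10 of the 56 (17.9%) and 2 of the 13 (15.4%), beside 6.23% and 1.86% over all genes. Mrps12, with 3 CCAAT boxes, and Mrpl37, with 2, were among the genes with a UTX DMSO peak, whereas the third, Mrpl49, had none in its promoter. Mrpl3, without any peak, carried 2 CCAAT boxes and a CCGGAAG.

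Base composition is given beside the patterns, and the part of either in the peaks was not tested. The median GC content was 59.2% in the 56 promoters with a UTX MI-503 summit and 51.3% in the 13 without one, beside 62.7% and 51.7% over all genes. The median ratio of observed to expected CpG was 0.820 with and 0.802 without a UTX MI-503 summit. Over all genes that ratio was 0.830 with and 0.316 without.

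Cytosolic ribosomal protein genes, the closest other family, had peaks at larger shares in both long lists. Of 83 such genes, 72 (86.7%) were in the UTX MI-503 list and 65 (78.3%) in the Menin DMSO list, and the intervals (77.5 to 93.2% and 67.9 to 86.6%) overlapped those of the mitochondrial family. None of the 83 had a UTX DMSO peak (interval 0 to 4.35%), against 3 of the 78 mitochondrial ribosomal protein genes. Fau, which encodes a cytosolic ribosomal protein under another symbol, is not among the 83 and does carry a UTX DMSO peak, the one it shares with Mrpl49. Shared peaks were rarer in the cytosolic family, with 16 of 72 genes (22.2%, interval 13.3 to 33.6%) in UTX MI-503 and 14 of 65 (21.5%, interval 12.3 to 33.5%) in Menin DMSO. Those intervals lay below the 44.9 to 71.4% and 43.2 to 71.8% of the mitochondrial family. A start on the opposite strand within 1 kb was also rarer, at 12.7% of cytosolic against 36.2% of mitochondrial ribosomal protein genes with known strand.

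None of the genes listed as acting with these proteins had a peak in UTX DMSO or Menin MI-503. Of 24 genes for assembly of the mitochondrial ribosome and maturation of its RNA, 20 had a UTX MI-503 peak (83.3%), 18 a Menin DMSO peak (75%) and 16 both, beside 36.5%, 31.2% and 28.4% of all genes. Tfb1m, the methyltransferase of the small ribosomal RNA, had folds of 20.0 in UTX MI-503 and 8.49 in Menin DMSO. Mpv17l2, a membrane protein of ribosome assembly, had 17.4 and 5.35, while Fastkd2 and Trub2 had no peak. Of 5 ribosome subunits with other symbols, UTX MI-503 peaks were found at 4 (80%) and Menin DMSO peaks at 2 (40%), the second share being near that of all genes. Aurkaip1 had folds of 9.85 in UTX MI-503 and 7.30 in Menin DMSO, Dap3 had 7.11 in UTX MI-503 alone, and Chchd1 had no peak.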

How the data were processed

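Per the submitters' processing notes, peaks were called with MACS2 and mm10 (GRCm38) was the mouse build; no source used here gives the version, aligner or threshold. Per the labels, cells were fixed in 1% paraformaldehyde for 5 min and sonicated for 14 min. Per the peak names in the deposited lists, each list came from 1 library against a vehicle input, shared by both UTX lists, with another input for both Menin lists. The deposited columns are fold (a ratio of summit pileup to local background), −log10 p and −log10 q, and a score, which is −log10 q times 10, cut to a whole number.

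From these lists, summits within 1 kb of a gene start or end were counted (Python 3.11.15, pandas 2.3.3, numpy 2.4.6, scipy 1.17.1), with overlap meaning at least 1 bp. Pileups were recovered by solving fold and p together, and were whole multiples of a single step in 100% of the peaks tried, against at most 58.7% at the next best step. Fragments at a summit are that multiple. The peak-to-gene code was checked on simulated data, where 200 of 200 planted genes were found. RefSeq promoters gave strand for 69 genes. The genes and lists were chosen with earlier results of these data known. Genes named with values were the 10 ranking highest in both long lists, those in 1 long list, those with UTX DMSO peaks, those with none, the 10 highest shared peaks and the 3 highest and lowest folds per list. Genes named for ribosome structure or a motif were chosen after their values were seen. The split of promoters by summits at RefSeq starts and the shares without shared peaks over all genes were added after seeing the data. Alternatives are given in the closing section.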

Additional observations from a re-analysis of the deposited data

How the results depend on the processing

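Of 121 alternative values over 13 results and 12 settings, 95 counts or shares stayed within 1.5 times the reported count or inside its interval, and 26 moved. Keeping only as many of the highest peaks as the UTX DMSO list holds (217) left UTX MI-503 peaks at 2 genes (2 large and 0 small subunit), Menin DMSO peaks at 1 (1 large and 0 small) and both at 1, with 1 shared peak in each list; 50% of the remaining UTX MI-503 and 100% of the remaining Menin DMSO peaks were overlapped. At that length UTX MI-503 had fewer of the genes than UTX DMSO (2 against 3), and too few genes were left to compare the subunits. Leaving out shared peaks gave UTX MI-503 peaks at 24 genes (10 large, 14 small), UTX DMSO peaks at 0, Menin DMSO peaks at 21 (11 large, 10 small) and both at 19. An unshared UTX MI-503, UTX DMSO or Menin DMSO peak was thus at 30.8%, 0% and 26.9% of the 78 genes, against 25.8%, 0.512% and 21.7% of all genes. Among genes with no other gene boundary within 1 kb, a UTX MI-503 peak was at 70.6%, against 28.1% of all such genes. For Menin DMSO these shares were 58.8% and 23.7%. With such a boundary they were 77.3% and 61.9% for UTX MI-503, and 68.2% and 54.0% for Menin DMSO. A fold of at least 5 gave Menin DMSO peaks at 31 genes (22 large, 9 small) and both at 31, with overlap of 52.5% of UTX MI-503 and 100% of Menin DMSO peaks. Requiring 50% of both peaks to overlap gave 57.8% for UTX MI-503 and 71.2% for Menin DMSO peaks. Windows of 500 bp and 3 kb gave UTX MI-503 peaks at 54 and 66 genes, the latter 84.6% of the 78 beside 41.6% of all genes. For the 500 bp window, the fold of at least 5 and the 217 highest peaks, the share of all genes was not counted. Adding annotated transcription starts, and moving subunits by structure, were chosen after seeing the data. No paired analysis was possible because each group had 1 library; replicates could not be left out. Absolute depth is unknown, so a missing peak has no limit attached.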

Other observations

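Genes for translation factors and for nuclear regulators of mitochondrial genes also carried peaks in the long lists and none in UTX DMSO or Menin MI-503. Of 10 mitochondrial translation factors, 6 had a UTX MI-503 peak (60%), 4 a Menin DMSO peak (40%) and 2 both. The shares of all genes were 36.5%, 31.2% and 28.4%, so the Menin DMSO share was near that of all genes. The share with both was below it. Mtif3 and Mtrf1 had no peak. Mtfmt, which formylates the initiator tRNA, had folds of 10.9 in UTX MI-503 and 8.21 in Menin DMSO. The elongation factor genes Tufm, Tsfm and Gfm1 had UTX MI-503 peaks alone (7.66-fold, 5.31-fold and 9.24-fold). Mtrf1l, a release factor, and Mrrf, the ribosome recycling factor, had Menin DMSO peaks alone (21.1-fold and 7.19-fold).

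Of 9 regulators, 7 had a UTX MI-503 peak, 5 a Menin DMSO peak and 4 both, and Gabpb1 had none. The nuclear receptor gene Esrra had folds of 16.4 in UTX MI-503 and 19.8 in Menin DMSO. Yy1 had 12.7 in UTX MI-503 and 14.8 in Menin DMSO, and Tfam, the packaging factor of mitochondrial DNA, had 9.22 and 13.4. Nrf1 had a UTX MI-503 peak alone at 6.57-fold. These are values of single libraries, read beside the 36.5% and 31.2% of all genes with a UTX MI-503 and a Menin DMSO peak.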
